A study of Rattus norvegicus with 25 samples.

Results

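Neurotrophins are secreted growth factors that are made as longer precursors. Brain-derived neurotrophic factor (Bdnf) signals mainly through the receptor tyrosine kinase TrkB (Ntrk2) and neurotrophin-3 (Ntf3) mainly through TrkC (Ntrk3), while the p75 receptor (Ngfr) and sortilin (Sort1) bind the precursors. Both the amygdala and the hippocampus are known for Bdnf signaling in fear learning and stress responses. The rows of the deposited tables whose gene name was Bdnf, Ntf3, Ntrk2, Ntrk3, Ngfr or Sort1 were taken, which gave 6 of 26312 gene identifiers, 1 for each name (in that order ENSRNOG00000047466, ENSRNOG00000019716, ENSRNOG00000018839, ENSRNOG00000018674, ENSRNOG00000005392 and ENSRNOG00000031814).

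The animals were adult male wild-type Sprague-Dawley rats. Stress consisted of 3 h of immobilization together with predator scent, and control animals, labelled as undisturbed, stayed in the home cage with a cage change. Brains were taken on day 9, after a battery of behavioral tests, and poly-A RNA of punches from the left basolateral amygdala (BLA) and the left dorsal dentate gyrus (DG) was sequenced. Stress-exposed animals were chosen from the ends of a composite anxiety-like behavior score, as stress-low (score 0 to 2) or stress-high (score 13 to 15), and controls spanned 0 to 6. All animals went through the behavioral tests, and exposed animals were also housed apart from controls for some nights after stress.

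There were 13 BLA and 12 DG libraries from 14 animals, of which 11 gave both regions. Per region, the control library farthest out on the first principal component was left out of the fits (BLA library of animal 2, DG library of animal 35). The fits then held 6 control, 3 stress-low and 3 stress-high BLA libraries and 5, 3 and 3 DG libraries. For the BLA library of animal 35 the labels disagreed on exposure, and it was used as a control, as its library name has it. Total expected counts ran from 12709493 to 22801247 in the BLA and from 11656439 to 19477932 in the DG, where the 3 stress-high libraries all had larger totals than the 3 stress-low ones. Of the 4 listed granule cell genes, Prox1 (63.0 to 95.5 TPM in the DG, 2.03 to 2.93 in the BLA) and C1ql2 (284.5 to 504 and 1.85 to 4.28) marked the DG libraries. Dsp was also higher there (0.82 to 10.3 against 0.03 to 0.40 TPM). Calb1 did not mark them, at 80.8 to 127 TPM in the DG and 97.0 to 160 in the BLA. Rspo2, which was listed as a BLA marker, did not set the BLA apart, at 9.04 to 14.8 TPM against 12.5 to 23.9 in the DG. Neurod6 and Slc17a7, also listed for the BLA, had higher medians in the DG (167 and 1827 TPM against 110 and 1054). As punches hold many cell types, fewer cells of a type and less RNA per cell cannot be told apart in any value below.

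Bdnf is transcribed from several start sites, whereas the files hold 1 transcript model for it. RefSeq (build GRCr8) lists 6 promoter windows for Bdnf, 3 for Ntf3 and 1 for Sort1. Shown here are the 150 bases upstream of the start in the only Bdnf window that held a core cAMP response element, and in 2 of the windows of Ntf3, the ligand whose level differed most between the regions. The Ntf3 window not shown, window 2, is window 1 moved by 1 base. Capitals mark the core element CGTCA. The Bdnf window lies at chr3:116637708-116637857 on the plus strand, and the Ntf3 windows lie at chr4:160670624-160670773 and chr4:160668908-160669057 on the minus strand.
Bdnf, window 4: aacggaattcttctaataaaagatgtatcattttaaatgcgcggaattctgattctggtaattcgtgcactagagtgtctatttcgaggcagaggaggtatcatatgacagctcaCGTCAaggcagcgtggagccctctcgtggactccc
Ntf3, window 1: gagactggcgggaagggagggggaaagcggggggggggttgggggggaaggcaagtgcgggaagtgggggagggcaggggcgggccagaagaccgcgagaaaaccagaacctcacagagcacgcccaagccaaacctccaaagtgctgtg
Ntf3, window 3: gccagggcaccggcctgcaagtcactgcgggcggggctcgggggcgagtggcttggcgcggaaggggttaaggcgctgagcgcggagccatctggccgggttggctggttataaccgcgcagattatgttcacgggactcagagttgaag

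The motifs searched on both strands of the 250 upstream bases were the full cAMP response element TGACGTCA, its core CGTCA (which lies within the full element), the E-box CACGTG and the glucocorticoid element core TGTTCT. The core CGTCA began 35 bases before the start in Bdnf window 4. It was found in 18.2% of all 33469 windows. TGTTCT or its complement AGAACA was found in Bdnf windows 1 and 2 (17.5% of all windows hold it). The full element (1.59%) and the E-box (5.59%) were in none of the member windows, and the Ntf3 and Sort1 windows held none of these letters. A match describes the letters only. The counts do not say from which start site the Bdnf RNA came.

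The members formed 1 order of levels in the BLA and another in the DG. TPM, which corrects for transcript length, was used to compare genes within a library. In the 12 BLA libraries of the fits, Sort1 was highest (154 to 213 TPM, median 184.0), followed by Ntrk2 (94.8 to 131, median 115), Ntrk3 (30.9 to 41.4, median 35.9), Bdnf (11.8 to 24.7, median 17.7), Ntf3 (0.31 to 1.98, median 0.86) and Ngfr (0.11 to 0.51, median 0.235). Only the ranges of Ntf3 and Ngfr overlapped, and Ntf3 was still above Ngfr in each of the 12 libraries. In the 11 DG libraries the order of medians was Sort1 (211 TPM), Ntrk3 (96.8), Ntrk2 (80.6), Ntf3 (43.1), Bdnf (32.4) and Ngfr (0.10). The ranges of Ntrk3 and Ntrk2 overlapped there, as did those of Ntf3 and Bdnf, although the first was above the second in all 11 libraries in both cases.

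The regions differed most in Ntf3. Its expected counts were 4 to 30 per BLA library and 372 to 572 per DG library of the fits, and its median TPM was 50.2 times higher in the DG. The TrkC receptor gene Ntrk3 was at 86.3 to 108 TPM in the DG and 30.9 to 41.4 in the BLA. Bdnf was at 26.2 to 36.8 TPM in the DG and 11.8 to 24.7 in the BLA. For these 3 genes the DG library was higher in 9 of the 9 animals with both libraries in the fits. Ntrk2 went the other way, with 75.5 to 97.2 TPM in the DG and 94.8 to 131 in the BLA, and the DG library was higher in 0 of 9 animals. For Sort1 the DG library was higher in 7 of 9 animals and for Ngfr in 2 of 9.

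**Figure D1:**
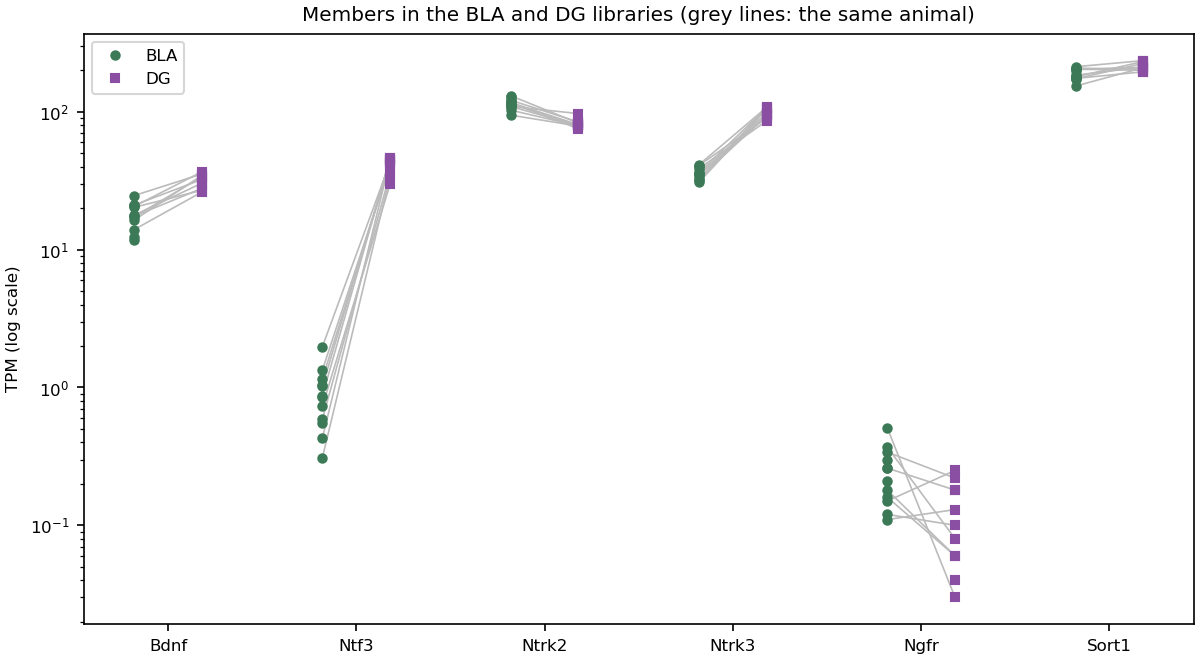
TPM of each member on a log scale in the 12 BLA libraries (circles) and 11 DG libraries (squares) of the fits, with grey lines joining the 9 animals present in both. The Ntf3 points do not overlap between the regions (0.31 to 1.98 against 30.1 to 46.5 TPM), the lines of Ntrk2 all go down from BLA to DG, and the Ngfr points lie below 1 TPM in both.

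Ratios within a library showed the same contrast. Ntrk3 over Ntrk2 was 0.27 to 0.373 in the BLA and 1.10 to 1.35 in the DG. Ntf3 over Bdnf was 0.0179 to 0.111 in the BLA and 1.02 to 1.77 in the DG. The tables of the regions were quantified separately, and the gap between length and effective length was 50 bases in every BLA library and 261 to 274 bases in the DG libraries. Levels are therefore given side by side across regions, with no test.

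The study's main question was which genes differ between animals with few and with many anxiety-like signs after the same stress. In the edgeR quasi-likelihood fits, 0 of 15230 BLA genes and 0 of 14080 DG genes passed an adjusted p of 0.05 (Benjamini-Hochberg over all genes tested) in any of the 3 comparisons, which is 0% in each. At an unadjusted p under 0.05 the BLA held 302 genes (1.98%) for stress-high against stress-low, 419 (2.75%) for stress-low against control, and 392 (2.57%) for stress-high against control. The DG held 440 (3.12%), 972 (6.90%) and 309 (2.19%) in the same order. Single libraries moved some of these counts by over 1.5 times. In the BLA, 302 became 603 without stress-low animal 30 and 459 without stress-high animal 7. In the DG, 440 became 681 without stress-high animal 7, 309 became 542 without control animal 14, and 972 became 1587 without control animal 14, 635 without control animal 2 and 581 without stress-low animal 33. DESeq2 called 0, 1 and 1 BLA genes and 3, 4 and 1 DG genes, and limma on log2(TPM + 1) called 0, 1 and 0 and then 0, 0 and 0. None of the 6 members was among the genes called by any of these tools.

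All 6 members passed the low-count filter in the BLA and 5 did so in the DG, where Ngfr did not. That gave 33 member fold changes within regions, of which 2 had an unadjusted p under 0.05, namely Sort1 and Ntrk3 in the BLA. By limma on log2(TPM + 1) neither did, at an unadjusted p of 0.285 and 0.0705. The smallest adjusted p of a member was 0.784 by the edgeR quasi-likelihood test. In TPM, 0 of 36 comparisons between groups had values that did not overlap. Over all genes tested, non-overlapping groups were found for 5.89%, 1.39% and 0.978% of genes in the BLA (stress-low against stress-high, control against stress-low, control against stress-high) and for 8.69%, 3.71% and 1.46% in the DG. The smallest exact two-sided permutation p of a member's TPM difference was 0.0952, for Ntrk3 in the BLA. The smallest p the design allows is 0.1 with 3 and 3 libraries, 0.0119 with 6 and 3, and 0.0179 with 5 and 3.

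**Figure D2:**
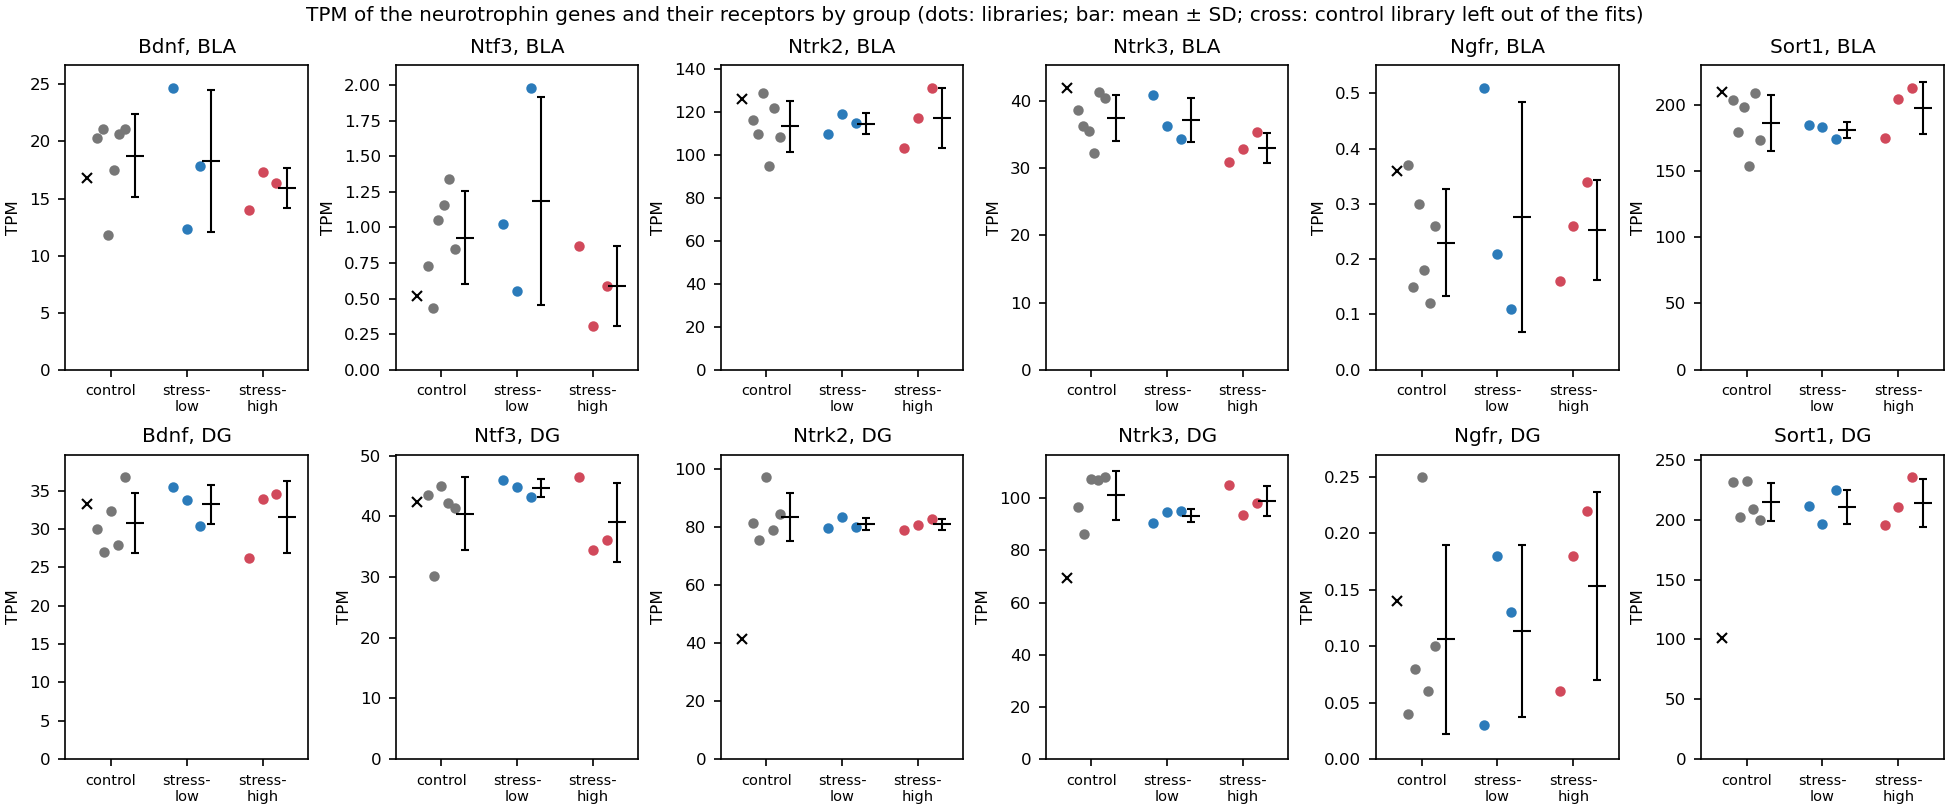
TPM of the 6 members (columns) in the BLA (top) and DG (bottom), by group, with each dot 1 library, the bar the mean and SD of the libraries in the fits, and the cross the control library left out of them. Every axis starts at 0. The groups overlap in all 12 panels, and the left-out DG library lies below every other DG library for Ntrk2, Ntrk3 and Sort1.

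Bdnf, the ligand of TrkB, was at similar levels in the groups of both regions. In the BLA the control libraries ran from 11.8 to 21.1 TPM with a median of 20.5, the stress-low libraries were at 24.7, 17.8 and 12.3 TPM, and the stress-high libraries were at 17.3, 16.4 and 14.0 TPM. The highest stress-low animal was above every control, and the other 2 and all stress-high animals lay inside the control range. The log2 fold change of stress-high over stress-low was -0.16 (SE 0.24, 95% interval -0.68 to 0.36), which in linear terms spans 0.622 to 1.28 times. It was 0.12 without stress-low animal 22 and -0.41 without stress-low animal 30. Stress-low over control was -0.08, and 0.17 without animal 30. In the DG, Bdnf was at 27.0, 27.9, 30.0, 32.4 and 36.8 TPM in controls, at 35.5, 33.8 and 30.4 in stress-low and at 34.6, 33.9 and 26.2 in stress-high animals. The groups overlapped, and the fitted change of stress-high over stress-low was -0.07 (log2, SE 0.11, interval -0.31 to 0.17).

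Control animals carried a label for a low or high score within their own range. In the BLA the 3 controls labelled high were at 20.3 to 21.1 TPM of Bdnf and the 3 labelled low at 11.8 to 21.1 TPM. In the DG the values were 27.0 to 36.8 TPM (3 libraries) and 27.9 to 30.0 TPM (2 libraries). The ranges overlapped in both regions. In the BLA they did so only through animal 35, at 21.07 TPM against a highest value of 21.06 TPM in the controls labelled high. The exposure labels of that library disagreed. The other BLA controls of the fits labelled low were at 11.83 and 17.5 TPM. Among the other members, only Ngfr in the DG had labelled controls that did not overlap. It was at 0.04 to 0.06 TPM in those labelled low and 0.08 to 0.25 in those labelled high, with 1 to 7 expected counts. How many of all genes separate controls by label was not counted, so no difference is read from these values.

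Ntf3, the ligand of TrkC, was near the limit of detection in the BLA. Its BLA expected counts were 5 to 19 in controls, 10, 12 and 30 in stress-low and 4, 8 and 19 in stress-high animals. In TPM the stress-low animals were at 0.55, 1.02 and 1.98, the stress-high animals at 0.31, 0.59 and 0.87, and the controls at 0.43 to 1.34 (median 0.95). The highest stress-low value came from 1 animal, and the groups overlapped. On the log2 scale, the fold change of stress-high over stress-low was -0.88 with a wide interval of -2.04 to 0.27 (SE 0.54, unadjusted p = 0.117, adjusted p = 1 by edgeR). It was between -1.41 and -0.23 when single libraries were left out, with the weakest value without stress-low animal 34. Its unadjusted p was 0.0257 without stress-low animal 30 and 0.0444 without stress-high animal 7, and the adjusted p stayed at 1 by edgeR.

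In the DG, where Ntf3 had far more reads, the stress-low animals were at 43.2, 44.9 and 46.0 TPM and the stress-high animals at 34.5, 36.1 and 46.5 TPM. The controls other than animal 14 lay between 41.4 and 45.0 TPM, and animal 14 was at 30.1 TPM. One stress-high animal (animal 7) was thus higher than every stress-low animal, and the other 2 were lower. The fitted log2 change of stress-high over stress-low was -0.19 (SE 0.13, interval -0.47 to 0.09). It was -0.35 without animal 7 (unadjusted p = 0.0115, adjusted p = 0.889 by edgeR).

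Ntrk2 encodes TrkB. With 2717 to 7763 expected counts per library of the fits, it was the member with the narrowest intervals. In the BLA the control libraries ran from 94.8 to 129 TPM (median 113), the stress-low libraries were at 110, 115 and 119 TPM and the stress-high libraries at 103, 117 and 131 TPM. Both stress groups lay almost wholly inside the control range. In the DG the stress-low libraries were at 79.5, 80.2 and 83.4 TPM and the stress-high libraries at 79.1, 80.6 and 82.9 TPM, all within the control range of 75.5 to 97.2 TPM (median 81.4). The log2 fold change of stress-high over stress-low was 0.07 (SE 0.07, interval -0.08 to 0.21) in the BLA and 0.0015 (SE 0.07, interval -0.14 to 0.14) in the DG. The DG interval corresponds to 0.907 to 1.11 times, so a larger change than that lay outside it. The files hold 1 transcript model for Ntrk2, so full-length TrkB and the truncated form, which is known from astrocytes, cannot be told apart.

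Ntrk3, which encodes TrkC, was lowest in the stress-high animals of the BLA. The stress-high libraries were at 30.9, 32.8 and 35.3 TPM, the stress-low libraries at 34.4, 36.3 and 40.8 TPM, and the control libraries at 32.2, 35.5, 36.2, 38.7, 40.5 and 41.4 TPM. Of the stress-high libraries, 2 lay below every stress-low library, the highest stress-high library was above the lowest stress-low one, and the groups overlapped. The log2 fold change of stress-high over control was -0.19 (SE 0.07, interval -0.35 to -0.03, 0.878 times), with an unadjusted p of 0.0243 and an adjusted p of 1 by the edgeR quasi-likelihood test. By unadjusted p it ranked 144th of 15230 genes. The exact permutation p of the TPM difference was 0.0952 (6 against 3 libraries). The fold change kept its sign when any 1 of the 9 libraries was left out, at -0.21 to -0.16, with an unadjusted p of 0.0121 to 0.0694. Stress-high over stress-low gave -0.14 (SE 0.09, interval -0.32 to 0.05). This value was -0.06 without stress-low animal 22 and -0.20 without stress-low animal 30 (unadjusted p = 0.0431, adjusted p = 1 by edgeR).

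In the DG Ntrk3 showed no such order. The stress-low libraries were at 90.35, 94.73 and 94.96 TPM, the stress-high libraries at 93.7, 98.3 and 105 TPM, and the controls at 86.3, 96.8, 107, 107 and 108 TPM. The control range covered both stress groups, and the log2 fold change of stress-high over stress-low was 0.08 (SE 0.07, interval -0.08 to 0.24). Whether the change between the stress groups differed between regions was tested in 1 fit of both regions, in which 0 of 15453 genes (0%) passed the adjusted threshold, 309 (2.00%) had an unadjusted p under 0.05, and DESeq2 and limma called 1 gene each. The edgeR fit treated BLA and DG libraries of the same animal as independent, which they are not, and this limits its p-values. For Ntrk3 the difference of the log2 fold changes (DG minus BLA) was 0.23 (SE 0.11, interval -0.01 to 0.47, unadjusted p = 0.0558, adjusted p = 1 by edgeR). The unadjusted p was 0.0189 without BLA stress-low animal 30, where 309 became 481. For the other 5 members the unadjusted p was between 0.201 and 0.722. The Ntf3 difference was 0.64 (SE 0.49), -0.04 without BLA stress-low animal 34 and 1.09 without BLA stress-low animal 30 (unadjusted p = 0.0225, adjusted p = 1 by edgeR), and 1.20 without BLA stress-high animal 7.

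**Figure D3:**
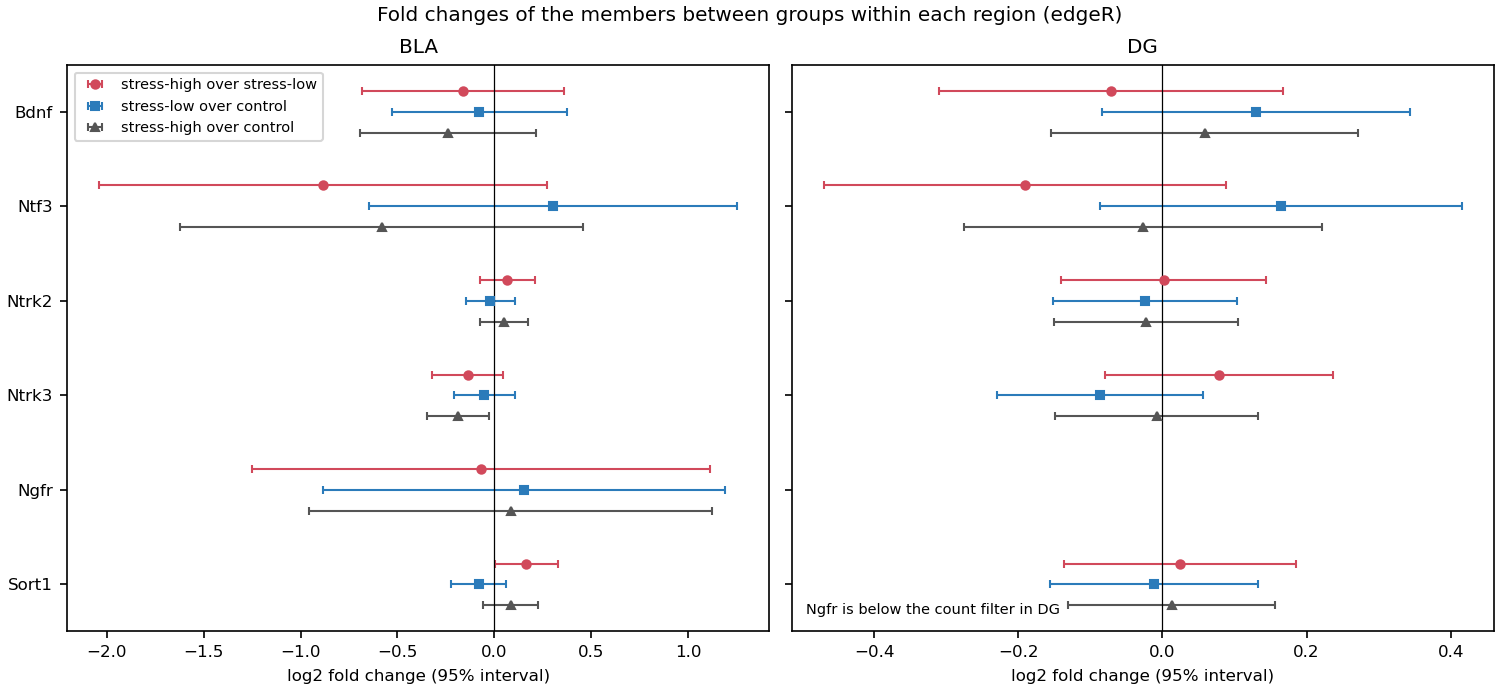
The log2 fold changes of the members with 95% intervals from edgeR, in the BLA (left) and DG (right, with a narrower axis), for stress-high over stress-low (circles), stress-low over control (squares) and stress-high over control (triangles). Of the 33 intervals 31 include 0, and the 2 that do not are those of Sort1 (0.17) and Ntrk3 (-0.19) in the BLA.

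Ntrk3 was the only member with several transcripts in the files, 6 of them. RSEM weights their lengths by their estimated shares, so the deposited length of the gene moves with the mix of transcripts. In the BLA the mean length was 2132.6 ± 29.2 bases in controls (SD, n = 6), 2128.2 ± 41.7 in stress-low (n = 3) and 2118.5 ± 24.4 in stress-high animals (n = 3). In the DG it was 2019.9 ± 15.7 (n = 5), 2035.8 ± 27.7 (n = 3) and 2019.8 ± 12.5 bases (n = 3). The groups overlapped in each case, with exact permutation p from 0.357 to 1 over 6 comparisons. The differences in the BLA were smaller than the SD of each group. In the DG stress-low libraries were longer by 15.9 bases than controls and by 16.0 bases than stress-high libraries, which is more than the SD of either of those groups but less than that of the stress-low group. The BLA and DG values did not overlap (2095.6 to 2181 bases against 2004.9 to 2065.2 in the libraries of the fits), which is given as a description, since the regions were quantified separately.

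**Figure D4:**
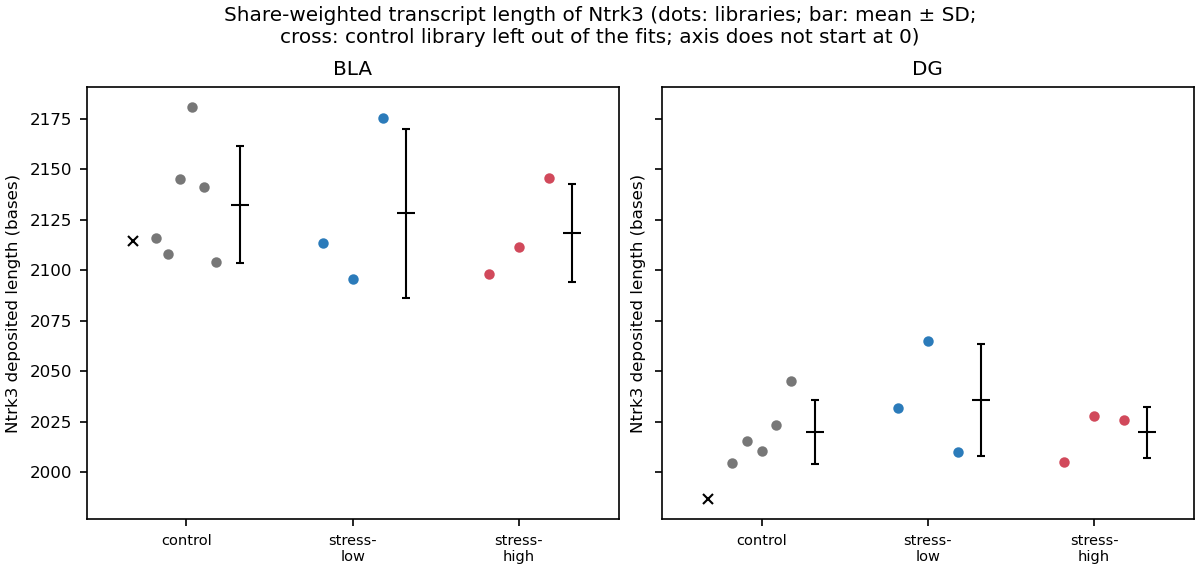
Deposited length of Ntrk3 in bases by group in the BLA (left) and DG (right), with each dot 1 library, the bar the mean and SD, and the cross the control library left out of the fits. The axis does not start at 0. The groups overlap within each region, and the DG libraries of the fits lie below those of the BLA.

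Ngfr encodes the p75 receptor, which in the adult forebrain is known mainly from cholinergic neurons. It had 4 to 14 expected counts per BLA library and 1 to 8 per DG library. In the BLA it was at 0.11, 0.21 and 0.51 TPM in stress-low and 0.16, 0.26 and 0.34 TPM in stress-high animals, with controls at 0.12 to 0.37 TPM. The highest and the lowest value of the fits were both from stress-low animals. The interval of the log2 fold change of stress-high over stress-low, -1.25 to 1.11, covers more than a doubling in either direction. In the DG, 7 of the 11 libraries had 3 counts or fewer, and no fold change is given. The cholinergic marker gene Chat was also near 0, at 0 to 0.91 TPM in the BLA and 0 to 0.14 TPM in the DG. The 2 cholinergic genes found summed to 0.26 to 4.94 TPM in control, 0.97 to 5.08 in stress-low and 0.44 to 0.56 in stress-high DG libraries, and their part in the Ngfr values was not tested.

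Sort1, which encodes the sorting receptor sortilin, was the most abundant member in both regions. In the BLA it was at 174, 183 and 185 TPM in stress-low and at 175, 204 and 213 TPM in stress-high animals. Of the 3 stress-high libraries, 2 were above all stress-low libraries, and the third lay among them. Controls ran from 154 to 209 TPM (median 189), so both stress groups lay within or close to the control range. The log2 fold change of stress-high over stress-low was 0.17 (SE 0.08, interval 0.0017 to 0.33, 1.12 times), with an unadjusted p of 0.048 and an adjusted p of 1 by edgeR. The exact permutation p was 0.3 for 3 against 3 libraries. The unadjusted p was between 0.0456 and 0.172 when single libraries were left out. In the DG the same fold change was 0.02 (SE 0.07, interval -0.14 to 0.19), with stress-low libraries at 196, 212 and 225 TPM and stress-high libraries at 196, 211 and 236 TPM.

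Of the 30 pairs of members over both regions, 1 varied together across animals beyond an adjusted threshold. Ntrk2 and Sort1 correlated in the 12 BLA libraries (log2(TPM + 1), Pearson r = 0.86, permutation p = 0.00038, adjusted over 30 pairs 0.0114; Spearman rho = 0.825, permutation p = 0.00148, adjusted 0.0444). Without the 2 libraries farthest from the median of Ntrk2, r was 0.687, and after subtracting group means it was 0.886. In the 11 DG libraries r was 0.429 (permutation p = 0.192, rho 0.309), and -0.0028 without the 2 farthest libraries. With the left-out control library the DG value rose to 0.949, which rested on that library, at 41.4 TPM of Ntrk2 and 101 TPM of Sort1. Ligands and their receptors did not pass the threshold in either region. After subtracting group means 3 pairs passed, the others being Ntf3 with Ntrk3 (r = 0.812, adjusted p = 0.0451, permutation) and Ntrk2 with Ngfr (r = 0.766, adjusted p = 0.0451, permutation), both in the DG, where r before subtraction was 0.496 and 0.673. Without the 2 farthest libraries, r before subtraction was -0.0981 and 0.539. Ngfr had 3 counts or fewer in 7 of the 11 DG libraries. How many pairs over all genes correlate as strongly as Ntrk2 and Sort1 was not counted. In the BLA, for example, Ntrk2 also reached 0.90 with Ubr4 and 0.923 with Ncam1.

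**Figure D5:**
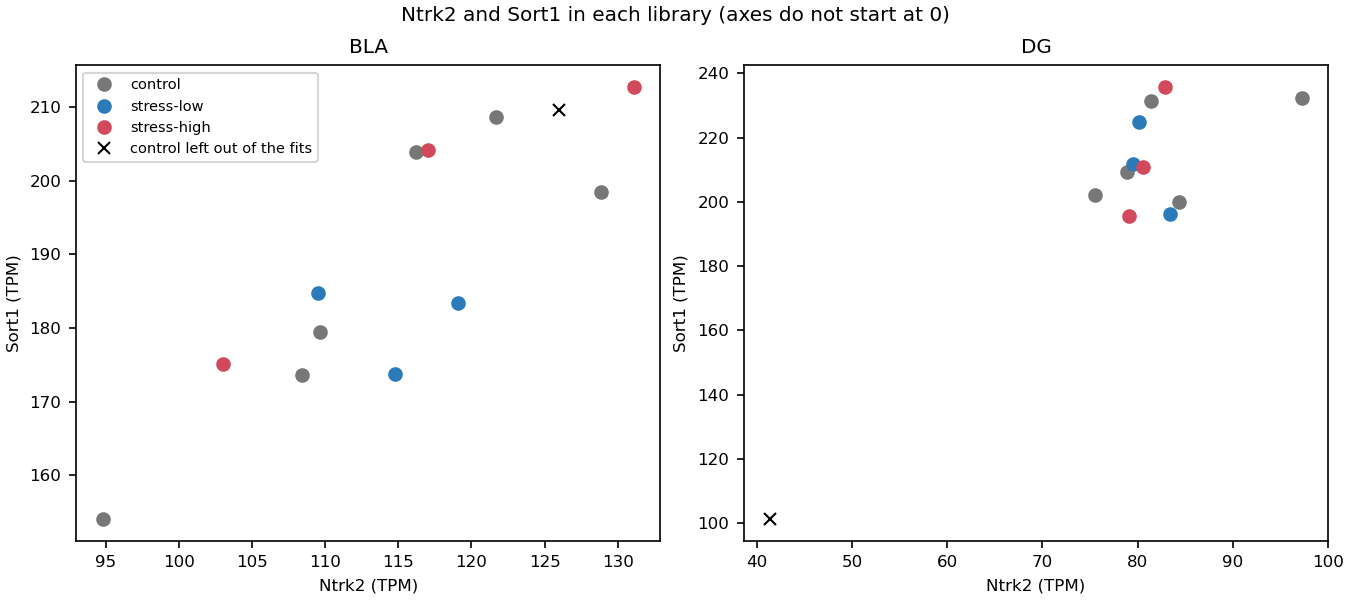
Sort1 against Ntrk2 in TPM in each BLA library (left) and DG library (right), with dots colored by group and a cross for the control left out of the fits. The axes do not start at 0. The BLA points rise together (r = 0.86 for log2(TPM + 1) without the cross), and the DG dots do so less clearly (0.429), with the cross far from them at 41.4 and 101 TPM.

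The genes most like a member were sought among 12572 genes whose mean reached 1 TPM in both regions, by the smaller of the BLA and DG correlations. These are descriptions over 12 and 11 libraries that share depth and tissue composition. For Bdnf they were Plekhg1 (0.738 in the BLA, 0.857 in the DG), Pcdh9 (0.698, 0.824) and Fbxw7 (0.728, 0.682). For Ntrk2 they were Ubr4 (0.90, 0.898), Shank3 (0.854, 0.927) and Ncam1 (0.923, 0.851). For Ntrk3 they were Epn2 (0.798, 0.824), Lpin1 (0.795, 0.796) and 4930404N11Rik (0.787, 0.843). For Sort1 they were Efr3b (0.92, 0.898), Kif1a (0.878, 0.886) and Scamp5 (0.865, 0.904). With the left-out DG library included, the DG values of the Bdnf neighbors dropped to between 0.176 and 0.224, and that of 4930404N11Rik to 0.401. Ntf3 and Ngfr were below a mean of 1 TPM in at least 1 region and were not used.

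The left-out control libraries moved some members and not others. The DG library of animal 35 was at 49.6% of the mean of the other controls for Ntrk2, 47.1% for Sort1 and 68.8% for Ntrk3, but at 108% for Bdnf and 105% for Ntf3. The BLA library of animal 2 was at 56.1% for Ntf3 and 157% for Ngfr, both low in counts and inside the control range, at 89.9% for Bdnf, 111% for Ntrk2 and 112% for both Ntrk3 and Sort1. It also had 80.9 TPM summed over 5 leptomeningeal genes (12.9 to 21.9 in the libraries of the fits) and 385 TPM over 6 striatal or central amygdala genes (81.9 to 212).

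Cell type markers were summed for each group beside these values. The 8 astrocyte genes summed to 1976.9 to 2239.7 TPM in the BLA controls, 1893.2 to 2265.3 in stress-low and 1982.1 to 2162.7 in stress-high animals. The 6 oligodendrocyte genes summed to 2386.2 to 3241.1, 2771.0 to 4321.3 and 2848.1 to 3331.5 TPM in the same order. The 3 excitatory neuron genes summed to 981 to 1329.2, 928 to 1240.4 and 1030.6 to 1208.6 TPM. In the DG the 4 granule cell genes summed to 455 to 732, 443 to 525 and 475 to 591 TPM. These ranges overlapped between groups, but some lists had all fold changes on the same side. All 6 oligodendrocyte genes were positive over control in both BLA stress groups (log2 medians 0.17 in stress-low, 0.13 in stress-high). All 8 astrocyte genes were negative in DG stress-high over control (median -0.10). None passed the adjusted threshold. The cholinergic sums of stress-low and stress-high DG libraries, given above, did not overlap. The choroid plexus gene Ttr was listed at 0 in every BLA library of the fits. The part of cell composition in the member values was not tested.

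The wider pathway was covered by 6 lists. In all, tests of 90 listed genes were possible per comparison in the BLA and 88 in the DG, and none passed the adjusted threshold in the edgeR fits. At an unadjusted p under 0.05 there were 1, 4 and 1 in the BLA (stress-low against stress-high, control against stress-low, control against stress-high), or 1.11%, 4.44% and 1.11%. The DG had 3, 11 and 2, or 3.41%, 12.5% and 2.27%. The background over all genes was 6.90% for the DG comparison with 11 genes.

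Among the other neurotrophin ligands and receptors, 6 of 8 were tested in each region. The list's median log2 fold changes lay between -0.04 and 0.06. The sortilin relatives differed in level, with Sorl1 at 51.3 to 77.4 TPM in the BLA and 96.0 to 116 in the DG, and Sorcs1 at 12.2 to 27.2 and 3.57 to 5.68 TPM.

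Among genes for cleavage, sorting and release of the precursors, 13 of 16 were tested in the BLA and 12 in the DG. Serpini1, which encodes the tissue plasminogen activator inhibitor neuroserpin, was at 171 ± 17.4 TPM in stress-low DG libraries against 145 ± 16.9 in controls and 143 ± 7.34 in stress-high libraries. The stress-low and stress-high values did not overlap (160 to 191 against 136 to 151 TPM), as for 8.69% of all genes. The log2 fold change was -0.25 (SE 0.11) between the stress groups (unadjusted p = 0.0426, adjusted p = 1 by edgeR) and 0.24 (SE 0.10) for stress-low over control (unadjusted p = 0.028, adjusted p = 0.718). No other gene of this list reached an unadjusted p of 0.05 within a region. In the edgeR fit of both regions, 1 gene of the list did, with a negative value. The convertase Pcsk2 (99.8 to 141 TPM in the BLA) and Furin (13.6 to 20.3) cut precursors, and Cpe, a sorting receptor for the Bdnf precursor, was at 1557 to 1826 TPM in the BLA and 1010 to 1428 in the DG. Mmp7 was listed at 0 in all libraries of the fits.

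The adaptors and kinases downstream of Trk receptors were almost all measured, with 41 gene identifiers tested in the BLA and 40 in the DG. In the DG, Akt2, a kinase of the PI3K branch, was at 34.0 ± 2.61 TPM in stress-low libraries and 38.7 ± 1.99 in controls, without overlap (3.71% of all genes), with a log2 fold change of -0.17 (SE 0.06, unadjusted p = 0.021, adjusted p = 0.718 by edgeR). In the BLA Akt2 was also lower in stress-low than in control libraries, at -0.17 (SE 0.07, unadjusted p = 0.0223, adjusted p = 1 by edgeR), with overlap. Some animals gave both libraries, so these 2 values are not independent. CAMK2A, a calcium-dependent kinase of synapses, was lower in stress-low than in control libraries by unadjusted p in both regions, at -0.19 (SE 0.08, unadjusted p = 0.0365) in the BLA and -0.16 (SE 0.07, unadjusted p = 0.0294) in the DG, with adjusted p of 1 and 0.718 by edgeR. The kinase genes Camk4 (0.22, BLA stress-high over stress-low), Pik3cb (0.15, BLA stress-high over control), Rps6ka2 (0.28, DG stress-high over stress-low) and Akt1 (-0.14, DG stress-low over control) and the adaptor genes Sh2b1 (-0.14) and Frs2 (0.18), both for stress-low over control in the DG, also had an unadjusted p under 0.05 and an adjusted p of 0.718 or above by edgeR. The median log2 fold change of the list was between -0.01 and 0.02 in the 6 comparisons.

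Of the 11 partners and effectors of the p75 receptor, 11 were tested in each region and 0 reached an unadjusted p of 0.05 in the edgeR fits. Several of these genes were abundant where Ngfr was not, for example Ngfrap1 (317 to 382 TPM in the BLA and 448 to 533 in the DG) and Lingo1 (194 to 294 and 107 to 175).

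The 8 transcription factors and cofactors that act on Bdnf were all tested. In the DG, stress-low libraries against controls had log2 fold changes of -0.15 (SE 0.05, unadjusted p = 0.0174) for Crtc1, a coactivator of Creb, and -0.14 (SE 0.06, unadjusted p = 0.0278) for Usf2, an E-box factor, both with an adjusted p of 0.718 by edgeR. Creb1, which encodes the factor that Crtc1 assists, had a positive value, 0.34 (SE 0.14, unadjusted p = 0.0315, adjusted p = 0.718 by edgeR), for stress-low over control in the DG. The Usf2 groups did not overlap (85.6 to 93.0 against 94.9 to 106.5 TPM), as for 3.71% of all genes, and those of Crtc1 did.

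The 11 genes known to be induced by Bdnf were tested in both regions. Nr4a1, an immediate early nuclear receptor gene, was at 20.9 ± 1.18 TPM in stress-low and 26.3 ± 4.97 TPM in control BLA libraries (log2 fold change -0.37, SE 0.14, unadjusted p = 0.017, adjusted p = 1 by edgeR). In the DG, Arc, an immediate early gene of synaptic plasticity, was at 26.5 ± 3.81 against 33.9 ± 7.26 TPM in the same groups (-0.34, SE 0.15, unadjusted p = 0.0398), while the synaptic scaffold gene Homer1 was at 20.65 to 25.37 TPM (n = 3) against 20.5 ± 1.17 TPM (0.18, SE 0.08, unadjusted p = 0.041), both with an adjusted p of 0.718. Spry2, an inhibitor of receptor tyrosine kinase signaling, was higher in stress-high than in control DG libraries by 0.20 (SE 0.08, unadjusted p = 0.0315, adjusted p = 1 by edgeR). The groups of each of these genes overlapped. Stress-high over stress-low in the DG gave positive values for 8 of the 11 genes with a list median of 0.15, against -0.0002 over all genes, and 0 of them reached an unadjusted p of 0.05 in the edgeR fits. In the BLA, values were negative for 9 of the 11 genes in stress-low over control (list median -0.13) and for 9 of the 11 in stress-high over control (-0.05), against -0.0020 and -0.0037 over all genes. Positive values were found for 7 genes in BLA stress-high over stress-low (0.03), 7 in DG stress-high over control (0.09) and 4 in DG stress-low over control (-0.08). The share of all genes in each direction was not counted. Comparisons within a region share libraries, such as the controls, so these counts are not independent.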

How the data were processed

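The authors aligned poly-A reads with STAR 2.6.0a to rat build Rn5 with Ensembl 75 and used RSEM 1.3.1 for quantification. Per region the authors deposited 1 long, unfiltered table of all libraries that gives, for each gene, an expected count (RSEM's estimate, not always whole), TPM, length and effective length. The deposited TPM is scaled per library and corrected for length. Groups came from the labels. The members and gene lists were chosen with earlier results of these data known.

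Expected counts were rounded and fitted with edgeR 4.0.16 in R 4.3.3 (quasi-likelihood test, TMM scaling, filterByExpr at its minimum count of 10, a mean per group, Benjamini-Hochberg adjustment, threshold 0.05). This replaces the EBSeq model of the study, which was not installed. The control library farthest from the median on PC1 of log2(TPM + 1) was left out in each region, as the study left out 1. TPM and length differences were tested by exact permutation, and correlations with 100000 permutations (numpy 2.4.6). Alternatives used DESeq2 1.42.0 and limma 3.58.1. Named list genes are up to 2 per list and comparison with the smallest unadjusted p under 0.05. Akt1, Frs2, Creb1, CAMK2A in the DG and the list genes given by level only were added after their values were seen. For each member the 3 most alike genes are named. On simulated counts for stress-low against stress-high, edgeR recovered 47.8%, 69.2% and 98.5% of changes of 0.5, 1 and 2 on the log2 scale in the BLA (15041 genes) and 63.6%, 83.6% and 97% in the DG (13915 genes). The simulated counts lacked the extra gene-wise spread that the quasi-likelihood test estimates, and the rates average over randomly chosen genes. They are not the power for the members in the real data. Within a region each library is 1 animal, so the p-values there cover the spread between animals. The edgeR fit of both regions had no term for the animal and treated libraries of the same animal as independent. Some list genes are not reported here.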

Additional observations from a re-analysis of the deposited data

Results flagged for a closer look

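Control groups were searched for single libraries far from the rest by Dixon's test, in 24 groups of 5 to 7 values (6 members, 2 regions, with and without the left-out libraries). Chance flags about 1 in 20 independent groups, but the groups with and without the left-out libraries share most of their values. There were 4 flags, all in the DG, and they cannot be set against that rate. Ntf3 in control animal 14 was at 30.1 TPM, while the other controls of the fits were at 41.37 to 45.0 TPM. It was flagged both with and without the left-out library. Ngfr in control animal 17 was at 0.25 TPM (7 expected counts) against 0.04 to 0.10 TPM in the other controls of the fits. Sort1 in the left-out control animal 35 was at 101.22 TPM against 200.1 to 232 TPM in the other controls. That library had been picked as the farthest out on the first principal component, so its flag is not an independent result.

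No member had an adjusted p under 0.05 for a difference between the regions in the change between stress groups. No member moved in opposite directions in the regions with groups that did not overlap. That check could not flag a member, since 0 of 36 member TPM comparisons were without overlap, and no agreement of the regions is read from it.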

How the results depend on the processing

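No member passed an adjusted p of 0.05 under any setting, and the smallest adjusted p was 0.501 (edgeR, DESeq2 or limma). Of 553 member fold changes under alternatives, 47 turned sign, all with a main value of at most 1.29 standard errors. Where edgeR called 0 genes, DESeq2 called 1 (BLA, stress-low against control), 1 (BLA, stress-high against control), 3, 4 and 1 (DG, stress-low against stress-high, then each against control) and 1 for the region difference. With limma the counts were 1 (BLA, stress-low against control) and 1 (region difference, also 1 with the animal as a random block). Leaving out single libraries gave 0 to 1 genes for stress-low against stress-high and for stress-high against control in the BLA, both 1 without stress-high animal 20. Scaling by RLE and no low-count filter called 0 genes. Without the filter, unadjusted counts were 486 (BLA, stress-low against stress-high) and 600 (BLA, stress-high against control). With the left-out controls included they were 251 (DG, stress-low against stress-high) and 186 (region difference). By limma, the split of higher and lower genes at an unadjusted p under 0.05 was 90 and 231 instead of 152 and 150 for BLA stress-high against stress-low, 277 and 113 instead of 176 and 243 for BLA stress-low against control, and 115 and 192 instead of 151 and 158 for DG stress-high against control. The pair correlations passing were 2 with all mapped libraries and 3 with group means subtracted. The causes were not tested.

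After subtracting group means, correlations of libraries with the same title replicate number were -0.212 to 0.0853. Libraries with different numbers were not correlated for comparison, so these values do not settle whether the numbers pair the samples. With the replicate block, Ntrk3 in BLA stress-high over control was -0.18 (unadjusted p = 0.0354, adjusted p = 1 by edgeR), Sort1 in BLA stress-high over stress-low was 0.17 (unadjusted p = 0.066, adjusted p = 1), Ngfr in BLA stress-high over stress-low was 0.024 and Ntrk2 in DG stress-high over stress-low was -0.0146. The block called 0 genes in each comparison.

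Other sign changes were, on the log2 scale by limma, Ntrk2 in BLA stress-low over control (0.0207), Ntrk2 in DG stress-high over stress-low (-0.00278) and Sort1 in DG stress-high over control (-0.00809). With all mapped libraries they were, for DG stress-low over control, Ntrk2 (0.0766) and Sort1 (0.0969), and for DG stress-high over control, Ntrk2 (0.0781), Ntrk3 (0.0387) and Bdnf (-0.0117).

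Leaving out each library in turn, log2 fold changes that turned sign ran as follows. Bdnf ran from -0.413 to 0.118 (BLA, high over low), -0.358 to 0.173 (BLA, low over control), -0.138 to 0.0286 (DG, high over low), -0.0107 to 0.159 (DG, high over control) and -0.177 to 0.358 (region difference). Ntf3 ran from -0.359 to 0.702 (BLA, low over control), -0.185 to 0.0433 (DG, high over control) and -0.0427 to 1.20 (region difference). Ngfr ran from -0.425 to 0.629 (BLA, high over low), -0.543 to 0.511 (BLA, low over control), -0.117 to 0.328 (BLA, high over control) and -0.131 to 1.07 (region difference). Ntrk2 ran from -0.0535 to 0.0046 (BLA, low over control), -0.0102 to 0.0169 (DG, high over low), -0.0444 to 0.0239 (DG, low over control) and -0.0426 to 0.0281 (DG, high over control). Ntrk3 ran from -0.127 to 0.0138 (BLA, low over control) and -0.0628 to 0.0165 (DG, high over control). Sort1 ran from -0.0297 to 0.0696 (DG, high over low), -0.0576 to 0.0392 (DG, low over control) and -0.0416 to 0.0573 (DG, high over control). The counts of Ngfr and of BLA Ntf3 limit their precision.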
